A study of Mus musculus with 20 samples.

Results

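The fibrillar collagen genes Col1a1, Col1a2, Col3a1, Col5a1, Col5a2, Col5a3 and Col11a1 were followed in the left ventricle of mice after coronary artery ligation. They were represented by every array probe of these 7 symbols with a detection p-value under 0.01 on at least 5 of 20 arrays. Of 15 probes for these genes on the array, 9 were kept, and they covered 7 of the 7 genes, among 18683 kept probes of 45281 in all. The 6 probes left out were 3 for Col5a2 and 3 for Col11a1, each detected on 0 arrays, with raw intensities between 21.9 and 41.6.

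RNA came from C57BL/6J mice aged 12 to 15 weeks, 1 array per mouse, on day 3 after surgery. The 4 groups of 5 mice were female MI (myocardial infarction made by ligating a coronary artery), female sham (operated without a ligation), male MI and male sham. The left ventricular tissue was taken without the infarct, so the values describe the myocardium outside it. The study's title concerns survival of females after infarction, and its design asks how the response to ligation compares between the sexes.

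Fibrillar collagens are made as procollagen chains that wind into a rope-like helix, lose their end pieces outside the cell and pack into fibrils that lysyl oxidases cross-link. In the heart they are made mainly by fibroblasts, and collagens I and III form most of the interstitial network and of the scar. Collagens V and XI are minor components inside fibrils, where they start fibril assembly and limit fibril width, and collagen XI is best known from cartilage.

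On the GRCm38.p6 build, Col1a1 lies on chr11:94936224-94953042, Col1a2 on chr6:4505618-4541543, Col3a1 on chr1:45311538-45349706 and Col5a1 on chr2:27886381-28039510. Col5a2 lies on chr1:45374331-45503282, near Col3a1, while Col5a3 lies on chr9:20770050-20815117 and Col11a1 on chr3:114030479-114220756. Promoters of 5 of the 7 genes were in the RefSeq promoter table of that build. Those of 3 genes that rose and of Col11a1, which did not pass the test, are printed to show how unlike they are in base content. Each is the 250 bases before the start used in that table, 5′ to 3′ on the plus strand, which is the coding strand of these 4 genes. Capitals mark CCAAT on either strand (ATTGG where it reads on the minus strand) and TATAAA. The windows are chr6:4505368-4505617 for Col1a2, chr1:45311288-45311537 for Col3a1, chr2:27886175-27886424 for Col5a1 and chr3:114030290-114030539 for Col11a1.
Col1a2: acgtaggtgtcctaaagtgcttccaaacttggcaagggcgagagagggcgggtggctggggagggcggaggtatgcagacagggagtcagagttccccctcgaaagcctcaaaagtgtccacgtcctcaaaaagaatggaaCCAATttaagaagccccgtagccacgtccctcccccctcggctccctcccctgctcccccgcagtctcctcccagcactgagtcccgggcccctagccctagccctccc
Col3a1: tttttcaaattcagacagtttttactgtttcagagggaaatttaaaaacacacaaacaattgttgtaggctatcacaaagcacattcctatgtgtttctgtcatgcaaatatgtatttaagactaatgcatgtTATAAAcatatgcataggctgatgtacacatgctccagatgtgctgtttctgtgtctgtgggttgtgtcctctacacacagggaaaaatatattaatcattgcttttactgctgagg
Col5a1: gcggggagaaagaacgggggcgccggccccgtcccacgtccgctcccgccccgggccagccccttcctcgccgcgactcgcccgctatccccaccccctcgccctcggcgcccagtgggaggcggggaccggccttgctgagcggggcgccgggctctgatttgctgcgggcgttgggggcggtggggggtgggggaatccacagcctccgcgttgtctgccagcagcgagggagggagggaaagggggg
Col11a1: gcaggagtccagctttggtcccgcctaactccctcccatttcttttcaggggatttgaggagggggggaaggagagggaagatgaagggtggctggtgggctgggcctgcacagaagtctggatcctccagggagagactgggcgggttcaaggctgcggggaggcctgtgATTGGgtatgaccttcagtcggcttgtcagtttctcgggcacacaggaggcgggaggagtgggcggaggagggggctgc

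The Col1a2 window held CCAAT on the plus strand, 109 to 105 bases before the start, and the Col11a1 window held it on the minus strand, 79 to 75 bases before the start. The Col3a1 window held TATAAA 117 to 112 bases before the start, and the Col5a1 window held neither motif. The Col5a3 window, not printed, held CCAAT 122 to 118 bases before its start. Of 32841 promoter windows of the same length, 33.9% held CCAAT on either strand and 12.4% held TATAAA. The G and C content was 62.0% for Col1a2, 35.2% for Col3a1, 76.4% for Col5a1 and 62.4% for Col11a1, against a median of 52.4% over all windows. CCAAT thus stood in the window of a gene that rose and in those of both genes that did not pass the test. A match of letters is a description only.

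Arrays had a median raw intensity of 31.4 to 39.2, with 15670 to 18388 probes detected on each. The arrays lay on 4 chips: males on chips 1 and 2, females on chips 2 to 4, with only sham females on chip 2. The last array of a chip, position F, held female MI mouse 4, female sham mouse 2 and male sham mouse 3. Their Col3a1 values at the brighter probe deviated from the mean of the other arrays of their group by 0.31, -1.60 and -0.73 in that order, a mean shift of -0.67 on the log2 scale. Measured the same way, the mean shift of the other 8 collagen probes on these 3 arrays lay between -0.33 and 0.24. Single arrays moved further, in both directions. Their shifts ran from -0.62 (brighter Col5a2 probe, male sham mouse 3) to 0.65 (dimmer Col5a2 probe, female MI mouse 4). Values without these arrays are given beside those that moved most. Mouse numbers below only name the arrays of a group, and levels are log2 of background-corrected, quantile-normalised intensity.

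Ligation was followed by higher RNA of collagens I, III and V. In both sexes Col1a1, Col1a2, Col3a1, Col5a1 and Col5a2 were called higher in MI than in sham, and 0 collagen probes were called lower. Of the 8 collagen probes detected on any sham array, 6 were called higher in each sex. The remaining probe, the dimmer one for Col5a2, was kept only through MI arrays, so its difference follows in part from how it was kept and it is left out of these counts. Of all kept probes 14.8% were called higher and 15.6% lower in females, and 8.79% higher and 7.73% lower in males. The median over the 7 genes was a log2 difference of 1.71 in females and 1.45 in males, against -0.06 and -0.04 over all kept probes. Differences are MI minus sham, tested with limma and adjusted by the Benjamini-Hochberg method over all kept probes, and a probe was called at an adjusted p under 0.05. Without position F, 7 of 9 collagen probes were called higher in each sex, the dimmer Col5a2 probe among them. In bulk tissue, fewer cells of a type and less RNA per cell cannot be told apart.

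**Figure D1:**
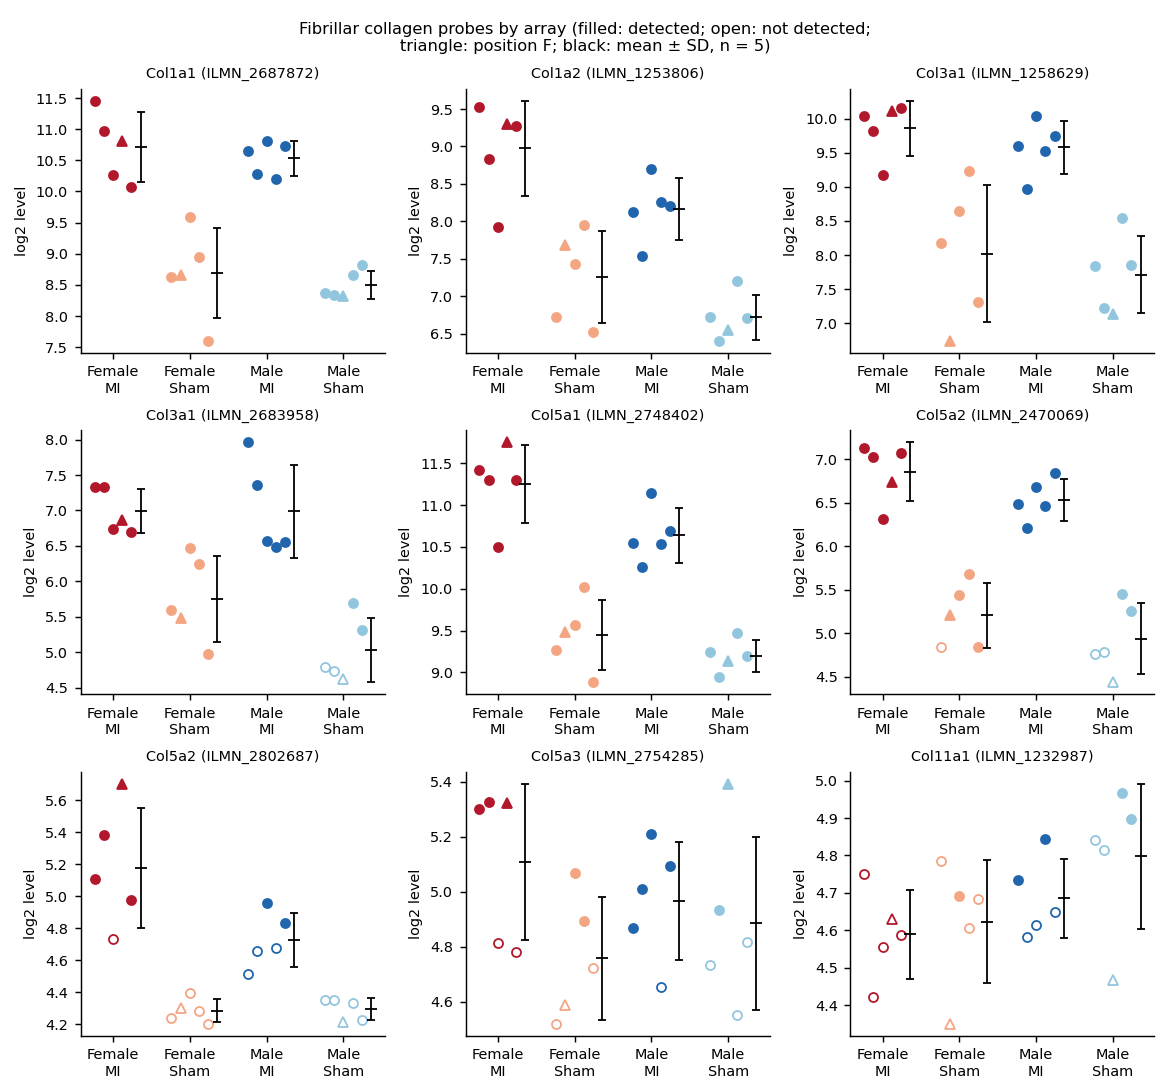
Log2 level (y axis) of each of the 9 collagen probes on 20 arrays, in the order female MI, female sham, male MI and male sham, with the mean and SD of 5 mice beside each group. Col1a1, Col5a1 and the brighter Col5a2 probe separate MI from sham without overlap in both sexes, while Col5a3 and Col11a1 lie near the detection limit and overlap.

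Col1a1 encodes the main chain of collagen I, of which each molecule holds more than 1 copy. The probe ILMN_2687872 gave log2 levels of 11.45, 10.98, 10.27, 10.81 and 10.07 in female MI mice 1 to 5, against 8.63, 8.66, 9.60, 8.95 and 7.60 in female sham. In male MI it gave 10.65, 10.27, 10.81, 10.19 and 10.73, against 8.37, 8.35, 8.32, 8.66 and 8.82 in male sham. The MI and sham mice did not overlap in either sex, and the sham females spread most widely, with mouse 3 high and mouse 5 low. The rise was 4.08-fold in females (log2 2.03, SE 0.278, adjusted p = 1.92e-05) and 4.08-fold in males (log2 2.03, SE 0.278, adjusted p = 6.62e-05). MI and sham did not overlap, with MI the higher, at 7.32% of all kept probes in females and 8.78% in males, and at 4 and 6 of the 8 collagen probes detected on any sham array.

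Col1a2 encodes the partner chain of collagen I. Its probe ILMN_1253806 gave 9.52, 8.83, 7.93, 9.30 and 9.28 in female MI, against 6.73, 7.68, 7.43, 7.95 and 6.52 in female sham. Male MI mice gave 8.12, 7.54, 8.70, 8.26 and 8.20, against 6.72, 6.40, 6.54, 7.21 and 6.71 in male sham. In females the groups met at 1 mouse each, MI mouse 3 lying just under sham mouse 4, and in males they did not overlap. Col1a2 rose 3.28-fold in females (log2 1.71, SE 0.290, adjusted p = 0.000166) and 2.73-fold in males (log2 1.45, SE 0.290, adjusted p = 0.00188).

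Col3a1 encodes the only chain of collagen III, the collagen of fine, extensible fibrils. The brighter of its 2 probes, ILMN_1258629, gave 10.03, 9.82, 9.18, 10.11 and 10.16 in female MI, against 8.18, 6.74, 8.64, 9.24 and 7.31 in female sham. In male MI it gave 9.60, 8.97, 10.04, 9.53 and 9.75, against 7.84, 7.22, 7.13, 8.54 and 7.85 in male sham. The female groups overlapped at MI mouse 3 and sham mouse 4, and the lowest sham mouse of each sex was the one in position F. The rise was 3.57-fold in females (log2 1.84, SE 0.361, adjusted p = 0.000662) and 3.64-fold in males (log2 1.86, SE 0.361, adjusted p = 0.00145). Without the position F arrays the log2 difference was 1.46 in females (SE 0.331, adjusted p = 0.00266, 4 mice per group) and 1.72 in males (SE 0.314, adjusted p = 0.000972, 5 MI and 4 sham mice).

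The dimmer Col3a1 probe, ILMN_2683958, averaged 6.99 ± 0.31 in female MI and 5.75 ± 0.60 in female sham (SD, n = 5 each). In males it averaged 6.99 ± 0.65 after MI and 5.03 ± 0.45 after sham surgery, and it was detected on 5 of 5 MI and 2 of 5 sham arrays. The log2 difference was 1.24 in females (SE 0.297, adjusted p = 0.00331) and 1.96 in males (SE 0.297, adjusted p = 0.000179). The sexes thus lay further apart at this probe than at the brighter one, and their difference in response was not called at either. With group means removed, the 2 Col3a1 probes correlated at r = 0.46 over 20 arrays, a description without a test, since the arrays share chips.

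Col5a1 encodes the chain found in most collagen V molecules. Its probe ILMN_2748402 gave 11.42, 11.29, 10.49, 11.75 and 11.30 in female MI, against 9.27, 9.48, 9.57, 10.02 and 8.88 in female sham. It gave 10.54, 10.27, 11.15, 10.54 and 10.70 in male MI, against 9.24, 8.94, 9.14, 9.47 and 9.19 in male sham. All 5 MI mice of each sex lay above all sham mice of that sex. Col5a1 rose 3.50-fold in females (log2 1.81, SE 0.212, adjusted p = 3.89e-06) and 2.72-fold in males (log2 1.44, SE 0.212, adjusted p = 0.000137).

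Col5a2 encodes the second common chain of collagen V. The brighter probe, ILMN_2470069, gave 7.13, 7.02, 6.31, 6.73 and 7.07 in female MI, against 4.84, 5.21, 5.44, 5.68 and 4.84 in female sham. Male MI mice gave 6.48, 6.21, 6.68, 6.46 and 6.84, against 4.76, 4.78, 4.44, 5.45 and 5.25 in male sham. The probe was detected on all MI arrays but on 4 of 5 female and 2 of 5 male sham arrays, and the groups did not overlap. Its rise was 3.14-fold in females (log2 1.65, SE 0.202, adjusted p = 5.89e-06) and 3.03-fold in males (log2 1.60, SE 0.202, adjusted p = 2.70e-05). The added offset of 16 intensity units makes fold changes of such dim probes smaller.

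The second Col5a2 probe, ILMN_2802687, was detected on 4 of 5 female MI and 2 of 5 male MI arrays, and on 0 of 10 sham arrays. It passed the detection filter only through MI arrays, where it is high, so its values are a description and support nothing. It averaged 5.18 ± 0.38 in female MI, against 4.29 ± 0.07 in female sham. In males it averaged 4.73 ± 0.17 after MI and 4.30 ± 0.07 after sham surgery. The male call had an adjusted p of 0.0325 and no fold is given, because MI lay under the level that sham could have reached undetected. The male call was lost in 12 of 35 other settings.

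Col5a3 and Col11a1, the collagens V and XI of narrower tissue range, stood near the detection limit. Col5a3 (ILMN_2754285), the least widespread chain of collagen V, gave 5.30, 5.33, 4.81, 5.32 and 4.78 in female MI, against 4.52, 4.59, 5.07, 4.89 and 4.72 in female sham. In males it gave 4.87, 5.01, 5.21, 4.65 and 5.09 after MI, against 4.73, 4.93, 5.39, 4.55 and 4.82 after sham surgery. The groups overlapped in both sexes, and the highest male sham value came from position F. The log2 difference was 0.35 in females (SE 0.160, adjusted p = 0.103) and 0.08 in males (SE 0.160, adjusted p = 0.775), neither past the threshold. Without position F they were 0.25 (adjusted p = 0.225) and 0.21 (0.343). With array weights the female difference was 0.53 and past it (adjusted p = 0.00375).

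Col11a1 (ILMN_1232987), a chain of cartilage collagen XI, was detected on 0 of 5 female MI, 1 of 5 female sham, 2 of 5 male MI and 2 of 5 male sham arrays. Its level averaged 4.59 ± 0.12 in female MI, against 4.62 ± 0.17 in female sham, and 4.69 ± 0.11 in male MI, against 4.80 ± 0.19 in male sham. The log2 differences were -0.03 in females (adjusted p = 0.842) and -0.11 in males (adjusted p = 0.514), so no change was detectable at this signal. Without position F they were -0.11 in females (adjusted p = 0.406) and -0.20 in males (0.150). With arrays scaled to their 75th percentile in place of quantile normalisation, Col11a1 was lower in male MI by a log2 difference of -0.31 (adjusted p = 0.0299). That scaling moved the median of all kept probes in males to -0.12, against -0.04.

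The scaling also moved the balance of calls over all kept probes in males. Of the called probes 53.2% were higher in MI, and 32.8% were higher under the 75th percentile. Col1a1, Col1a2, both Col3a1 probes, Col5a1 and the brighter Col5a2 probe kept their male calls there, with log2 differences between 1.29 and 1.91.

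**Figure D2:**
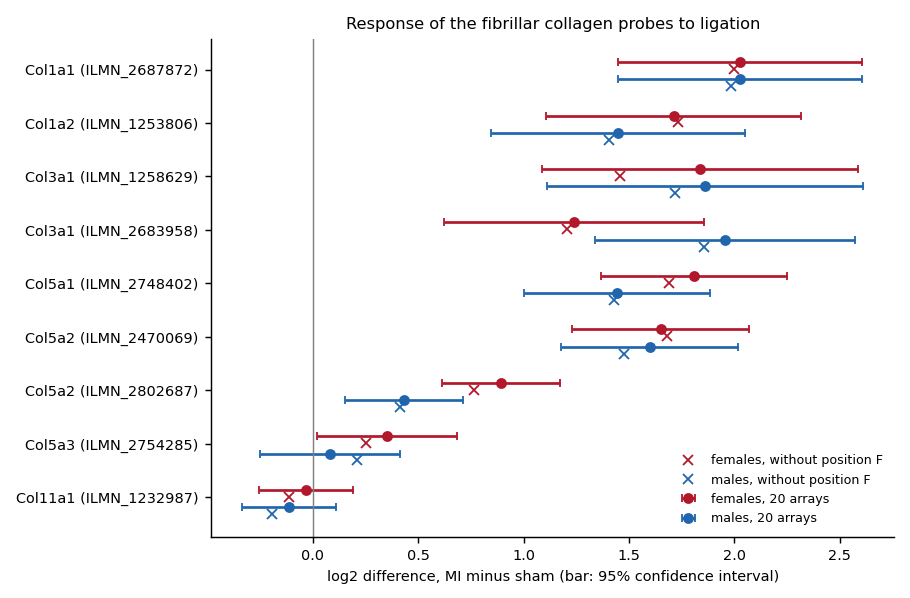
Log2 difference, MI minus sham (x axis), of each collagen probe in females (red) and males (blue), with 95% confidence intervals of the fit to 20 arrays; crosses leave out position F. Intervals of the 7 called probes, the dimmer Col5a2 probe among them, lie right of 0 in both sexes, and the cross of the brighter Col3a1 probe in females lies at 1.46, left of its point at 1.84.

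The female rise was set beside the chips. Female sham mice 3 and 4, on chip 3, were the 2 highest sham females for Col1a1, both Col3a1 probes, Col5a1 and the brighter Col5a2 probe. At these probes sham mouse 5, on chip 4, was among the lowest. Mice 3 and 4 were also the 2 highest for Col5a3, near the detection limit. Within chip 3, with 4 MI and 2 sham females, the log2 differences were 1.60 for Col1a1 (adjusted p = 0.0253), 1.44 for Col5a1 (0.0315) and 1.24 for the brighter Col5a2 probe (0.0251). There Col1a2 differed by 1.21 (adjusted p = 0.0844) and Col3a1 by 0.84 at the brighter probe (0.0890) and 0.71 at the dimmer probe (0.0722). The 3 collagen genes called within this chip were fewer than the 5 called over all female arrays. Calls over all kept probes were also fewer there, at 1304 against 5689. With chip as a block, Col1a1, Col1a2, Col5a1, the brighter Col5a2 probe and both Col3a1 probes were called in females. Col3a1 differed by 1.39 (adjusted p = 0.0142) at the brighter probe and 0.99 (0.0334) at the dimmer.

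Chip 4 held 1 mouse of each female group, so its differences have no replicate check. They were 2.46 for Col1a1, 2.76 for Col1a2, 2.85 for the brighter Col3a1 probe, 2.42 for Col5a1 and 2.23 for the brighter Col5a2 probe. Each of these was larger than the value within chip 3. In males the differences within chip 1 (3 MI, 3 sham) and chip 2 (2 MI, 2 sham) were 2.23 and 1.72 for Col1a1, 1.56 and 1.27 for Col1a2, and 2.14 and 1.44 for the brighter Col3a1 probe. For Col5a1 they were 1.55 and 1.29, and for the brighter Col5a2 probe 1.80 and 1.30. The part of chip in these differences was not tested beyond these values.

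No collagen probe was called between the sexes. Among sham mice, 0 of 9 probes were called between females and males by limma, and 1 had an unadjusted p under 0.05. Of all kept probes 0.107% were called there, and 13.3% passed unadjusted. After MI, 0 of 9 probes were called and 3 passed unadjusted, where 0.145% of all kept probes were called and 14.1% passed unadjusted. The difference in response, females minus males, was called at 0 of 9 probes, with 1 passing unadjusted, and at 0% of all kept probes, of which 8.72% passed unadjusted.

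The single sham probe was the dimmer Col3a1 probe, with a log2 difference of 0.72, female minus male (adjusted p = 0.300). The 3 after MI were Col1a2 (0.81, adjusted p = 0.221), Col5a1 (0.61, adjusted p = 0.214) and the dimmer Col5a2 probe (0.45, adjusted p = 0.161), all female minus male. Female MI mouse 3 was the lowest of its group for Col1a2, the brighter Col3a1 probe, Col5a1 and both Col5a2 probes. Without it Col1a2 and Col5a1 were called, with 1.07 (adjusted p = 0.0270) and 0.80 (0.0246), and the dimmer Col5a2 probe with 0.56 (0.0176). Calls over all 18683 kept probes then numbered 775, against 27 on all arrays. With array weights the 3 were called too, at 0.92 (adjusted p = 0.0163), 0.69 (0.0117) and 0.51 (0.00490), and calls over all kept probes reached 2271. The dimmer Col5a2 probe was kept only through MI arrays, 4 female and 2 male, so its values support nothing here. After MI, females lay on chips 3 and 4 and males on chips 1 and 2, so sex and chip cannot be told apart there.

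The difference in response ranged from -0.71 for the dimmer Col3a1 probe (SE 0.420, adjusted p = 0.611) to 0.46 for the dimmer Col5a2 probe (adjusted p = 0.540). The latter, the 1 probe passing unadjusted, was kept only through MI arrays. For Col1a1 its 95% confidence interval ran from -0.82 to 0.82, so the data allow a difference of up to that size between the sexes. The group means of Col1a1, Col1a2, Col5a1, the brighter Col3a1 probe and the brighter Col5a2 probe followed the same order, highest in female MI, then male MI, female sham and male sham. Within that order, neighbours with the same surgery were not called different on all arrays, so their order is a description. For Col1a2 and Col5a1, 4 of 5 female MI mice lay above all male MI mice. For Col1a1 and the brighter Col3a1 probe 2 did, and for the brighter Col5a2 probe 3 did.

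Whether the chains moved in proportion was asked with the log2 difference between probes inside each array, which was then compared between MI and sham. In this way 6 pairs of genes were compared in each sex by a two-sided exact permutation test, with p adjusted over 12 tests; 5 against 5 mice cannot go below p = 0.00794. A negative value means that the difference, MI minus sham, was smaller at the first probe than at the second. Probes differ in their response to RNA, so a shift compares probes and does not measure the balance of the chains. The Col5a3 and Col11a1 probes lay near the detection limit, where a response can be hidden, so their pairs with Col5a1 largely restate the rise of Col5a1.

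In males the Col5a1 probe rose less than the Col1a1 probe. The difference Col5a1 minus Col1a1 averaged 0.11 ± 0.21 in male MI and 0.69 ± 0.21 in male sham (SD, n = 5 each), a shift of -0.59 (95% interval -0.89 to -0.28, exact permutation p = 0.00794, adjusted p = 0.0190). All 5 male MI mice lay below all male sham mice. In females the shift was -0.22 (95% interval -0.97 to 0.53, exact permutation p = 0.508, adjusted p = 0.563). The shift in males was -0.69 within chip 1 and -0.44 within chip 2.

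The difference between the 2 collagen I probes shifted in males as well. Col1a2 minus Col1a1 averaged -2.37 ± 0.33 in male MI and -1.79 ± 0.25 in male sham, a shift of -0.58 (95% interval -1.01 to -0.15, exact permutation p = 0.0238, adjusted p = 0.0476), with 4 of 5 MI mice below all sham mice. It was -0.67 within chip 1 and -0.45 within chip 2, and the exact permutation adjusted p was 0.0952 without the position F array or with 75th percentile scaling. The call was lost in 8 of 20 cases with 1 array left out. In females the shift was -0.32 (95% interval -1.18 to 0.55, exact permutation p = 0.413, adjusted p = 0.563). The shifts were not tested between the sexes.

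For the pairs of Col3a1 with Col1a1 and of Col5a2 with Col5a1, no shift passed the test. Col3a1 minus Col1a1 shifted by -0.19 in females (95% interval -1.24 to 0.86, exact permutation adjusted p = 0.690) and -0.17 in males (-0.70 to 0.37, adjusted p = 0.563). Col5a2 minus Col5a1 shifted by -0.16 in females (-0.55 to 0.24) and 0.16 in males (-0.25 to 0.56), each with an exact permutation adjusted p of 0.563. The intervals of the Col3a1 pairs still hold a shift of the size found for Col1a2 in males, and those of the Col5a2 pairs do not. The Col5a2 pair depended on the background correction: with an offset of 50 it shifted by -0.69 in females and -0.44 in males (exact permutation adjusted p = 0.0119 each).

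Col5a3 minus Col5a1 shifted by -1.46 in females and -1.36 in males, and Col11a1 minus Col5a1 by -1.84 in females and -1.55 in males. Because Col5a3 was detected on 11 and Col11a1 on 5 of 20 arrays, these shifts are given as values and do not show that either gene responded less than Col5a1.

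**Figure D3:**
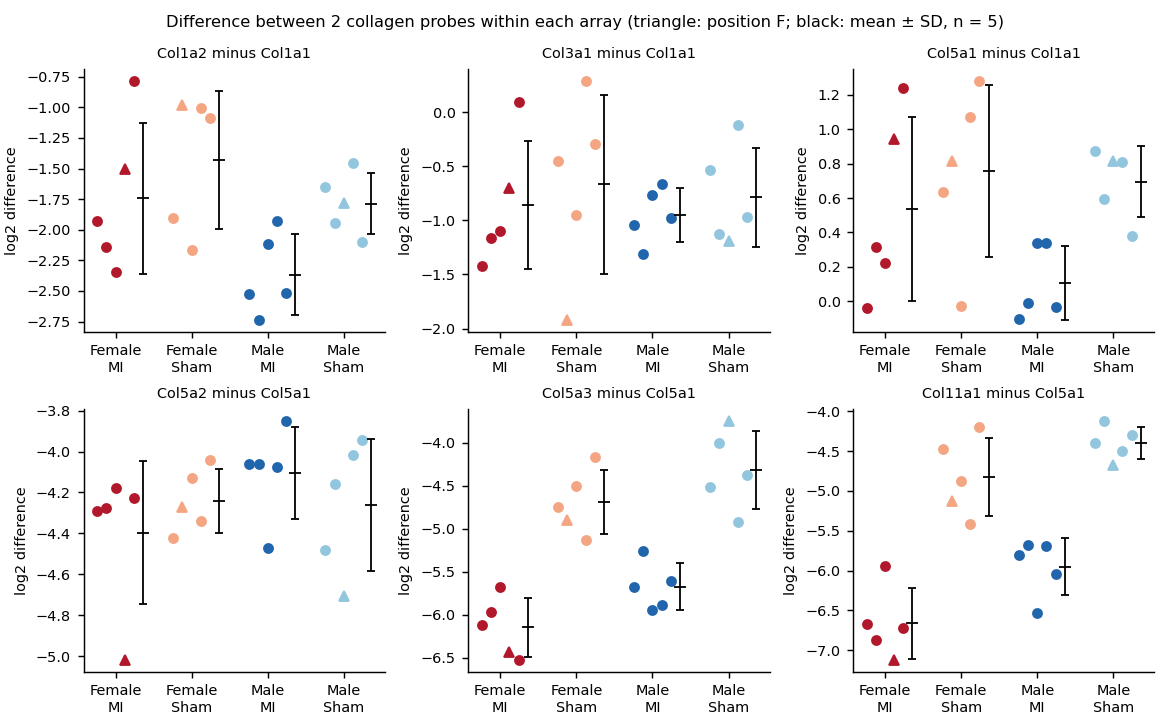
Log2 difference between 2 collagen probes within each array (y axis) for 6 gene pairs, in female MI, female sham, male MI and male sham, with the mean and SD of 5 mice. Male MI mice lie below all male sham mice for Col5a1 minus Col1a1, and the Col5a3 and Col11a1 pairs, whose first probe is near the detection limit, mirror the rise of Col5a1.

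Mice of the same group also differed together in these genes. With group means removed, Col1a2 and Col5a1 correlated at r = 0.91 over 20 arrays, and Col1a2 and Col3a1 at 0.59. Without the position F arrays the same values were 0.95 and 0.91 over 17 arrays. Col1a1 had r between 0.52 and 0.61 against Col1a2, Col3a1, Col5a1 and Col5a2 over 20 arrays, and between 0.58 and 0.64 without position F. Col5a3 and Col11a1 ran opposite at -0.44. The mean over the 7 genes was lowest, relative to its group, in female MI mouse 3 (-0.54) and female sham mouse 5 (-0.49), and highest in female sham mouse 4 (0.48). These correlations describe arrays that share chips, and carry no test.

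Among all genes with a symbol, the 5 whose array deviations were most like the mean of the 7 collagens were Cthrc1, Cd1d1, Lgals3, Rab32 and Spc25, with r between 0.85 and 0.87 over 20 arrays. Cthrc1, a secreted collagen triple helix repeat protein of activated fibroblasts, reached 0.96 without the position F arrays. It was higher after MI by log2 3.42 in females (adjusted p = 4.52e-07) and 2.68 in males (adjusted p = 1.86e-05). Lgals3 (galectin-3), Rab32 (a small GTPase) and Spc25 (a kinetochore protein) were also called higher in both sexes. Cd1d1, an antigen-presenting molecule, was called in neither (adjusted p = 0.413 in females and 0.548 in males). For Col11a1 the closest genes were Snapc1, Smpdl3a, H2-Aa, Rchy1 and Trappc6b, at 0.81 to 0.86 over 20 arrays and 0.36 to 0.69 without position F.

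**Figure D4:**
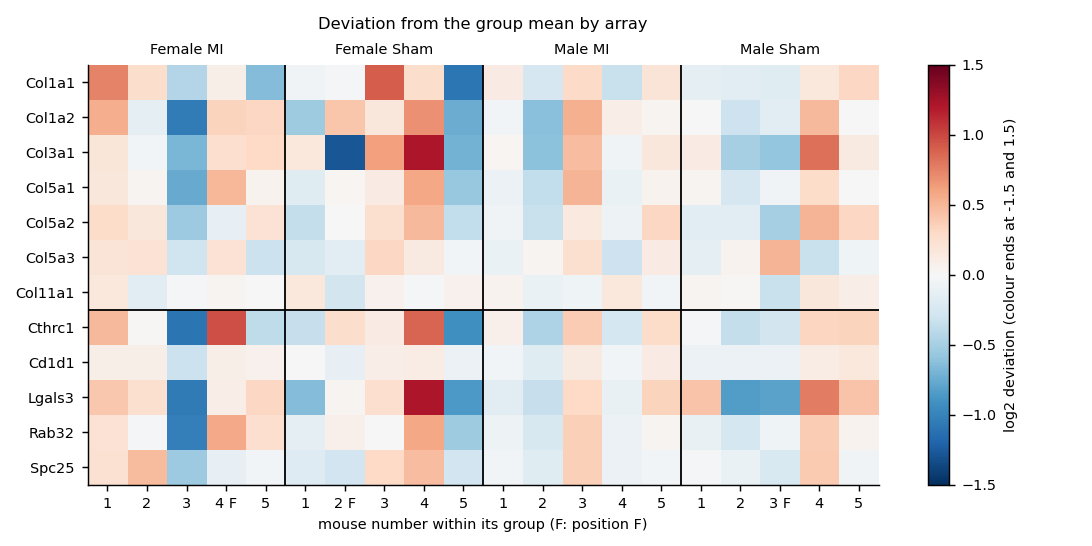
Deviation of each array (columns, mouse number within its group, F for position F) from its group mean, on the log2 scale, for the 7 collagen genes and the 5 genes most like their mean. Female MI mouse 3 and female sham mouse 5 are low across Col1a1 to Col5a2, female sham mouse 4 is high, and the single lowest Col3a1 value is that of female sham mouse 2.

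Genes of procollagen processing and cross-linking were called higher in MI more often than lower, in both sexes. For this and every list below, the shares over all kept probes were 14.8% higher and 15.6% lower in females. In males they were 8.79% higher and 7.73% lower. Of the remaining fibrillar collagens, 2 of 4 were measured: Col27a1 was higher by log2 0.34 in females (adjusted p = 0.0491, or 0.133 without position F) and 0.45 in males (0.0212), and Col11a2 did not pass the test. Of 14 measured hydroxylases, glycosyltransferases and chaperones of procollagen, 8 were higher and 1 lower in females, and 5 higher and 1 lower in males. Without position F, 9 were higher and 0 lower in females, and 8 higher and 0 lower in males. Their median was 0.69 in females and 0.38 in males. P4hb, the disulfide isomerase subunit of prolyl hydroxylase, rose by log2 0.79 in females (adjusted p = 0.000252) and 0.61 in males (0.00481). Colgalt1, a collagen galactosyltransferase, rose by 0.72 in females (0.000169) and 0.53 in males (0.00541). Its relative Colgalt2 was lower in females (-0.58, adjusted p = 0.0200, or 0.0735 without position F), and P4ha1, a catalytic subunit of prolyl hydroxylase, was lower in males (-0.65, adjusted p = 0.0402, or 0.0835 without position F). Colgalt2 in males (-0.37, adjusted p = 0.173) and P4ha1 in females (0.13, adjusted p = 0.674) did not pass.

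Of 3 measured genes of propeptide removal, 3 were higher in females and 2 in males. Pcolce, the enhancer of procollagen C-proteinase, rose by 1.00 in females (adjusted p = 9.08e-06) and 0.61 in males (0.00298). Bmp1, the proteinase itself, rose by 0.83 in females (adjusted p = 0.00784), and in males its difference was 0.52 (adjusted p = 0.121). Pcolce2, a related enhancer, rose by 0.38 in females (adjusted p = 0.0255, or 0.122 without position F) and 0.36 in males (0.0482). Of 4 measured lysyl oxidases, 4 were higher in females and 3 in males, or 2 in males without position F. Lox rose by 3.06 in females (adjusted p = 1.07e-06) and 2.85 in males (1.12e-05), the largest differences in these lists, and Loxl1 rose by 1.41 (6.07e-06) in females and 0.87 (0.00173) in males.

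Of 10 measured fibril-associated collagens and proteoglycans, 4 were higher and 2 lower in females, and 4 higher and 1 lower in males. The lower counts are near the shares over all kept probes, 15.6% in females and 7.73% in males. Col16a1, a fibril-associated collagen, rose by 1.25 in females (adjusted p = 4.70e-05) and 1.02 in males (0.00093). Bgn (biglycan), a small proteoglycan bound to collagen, rose by 0.91 (0.000283) in females and 0.74 (0.00383) in males. Fmod (fibromodulin), a proteoglycan that binds fibrils, fell by 0.41 in females (adjusted p = 0.0133) and by 0.37 in males (0.0434), and Tnxb (tenascin-X) fell by 0.54 in females (0.0207, or 0.0767 without position F), with -0.46 in males (0.0723).

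Genes of collagen breakdown and uptake were higher at 5 of 7 in females and 3 of 7 in males, and 0 were lower. Mmp14, a membrane-bound collagenase, rose by 1.98 in females (adjusted p = 1.79e-05) and 1.25 in males (0.00328), and Ctsk (cathepsin K, a collagen-cleaving protease) rose by 1.35 (4.32e-06) in females and 1.01 (0.000272) in males. Of 6 measured collagen receptors, 4 were higher in females and 1 in males, against 14.8% and 8.79% of all kept probes. Lair1, an inhibitory receptor of leukocytes, rose by 0.81 (adjusted p = 0.00114) and Itgb1, the shared chain of collagen-binding integrins, by 0.45 (0.00263) in females, and Ddr1, a receptor kinase, by 0.62 (0.0221) in males. The values that did not pass were 0.43 for Lair1 (adjusted p = 0.0845) and 0.13 for Itgb1 (0.438) in males, and 0.44 for Ddr1 (0.0651) in females.

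TGF-beta signalling is a pathway that drives collagen synthesis in fibroblasts. Of its 13 measured genes, 6 were higher and 2 lower in females, and 3 higher and 0 lower in males. Over all kept probes 14.8% were higher and 15.6% lower in females, and 8.79% and 7.73% in males. The 2 lower in females are thus near the share over all kept probes. Ccn2, a secreted target of the pathway, rose by 1.52 in females (adjusted p = 8.83e-06) and 1.56 in males (2.37e-05). The receptor Tgfbr1 rose by 0.62 in females (0.00141) and 0.55 in males (0.00661), and its partner Tgfbr2 by 0.44 in females (0.00278) and 0.60 in males (0.000525). Ltbp1, which holds latent TGF-beta in the matrix, fell by 0.58 in females (0.00947), and the co-receptor Tgfbr3 fell by 0.46 (0.0344, or 0.148 without position F). In males Ltbp1 differed by -0.02 (adjusted p = 0.939) and Tgfbr3 by -0.12 (0.661).

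**Figure D5:**
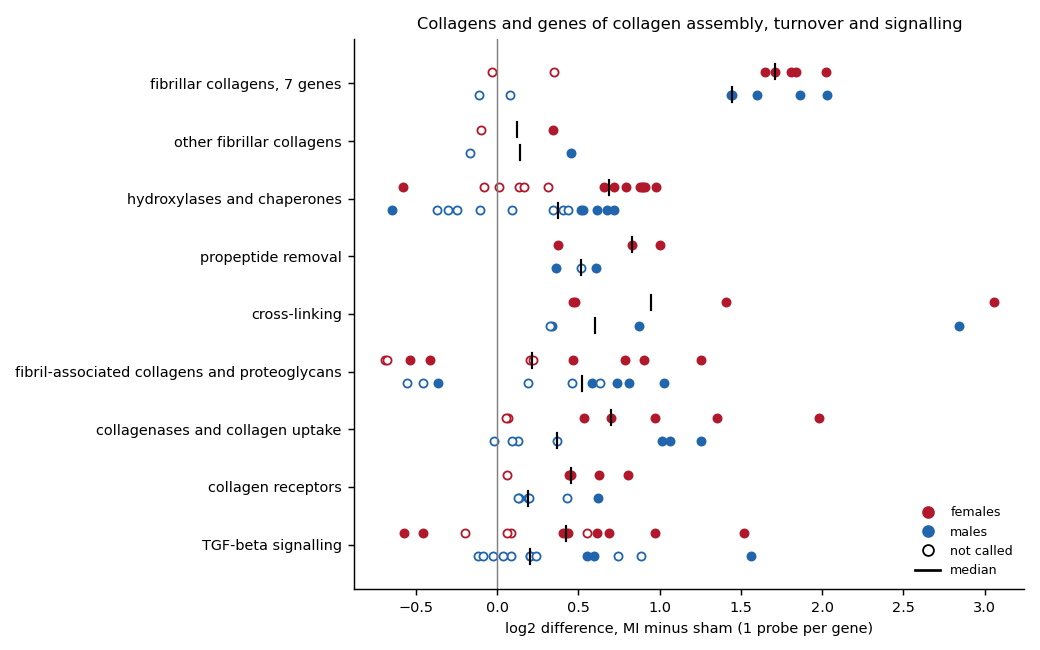
Log2 difference, MI minus sham (x axis), of each measured gene in the fibrillar collagen group and 8 lists of collagen partners, females in red above males in blue; filled points were called and black bars are medians. Collagen medians of 1.71 and 1.45 lie right of the medians of all 8 lists, which run from 0.12 to 0.95 in females.

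Markers of cell types were measured on the same arrays. Beside all marker counts, 14.8% of all kept probes were called higher and 15.6% lower in females, and 8.79% and 7.73% in males. Of 10 fibroblast markers, 1 was higher and 2 lower in females, and 1 higher and 0 lower in males, with medians of 0.03 and 0.19. Such counts are near the shares over all kept probes. Without position F the medians were -0.11 and 0.07, and 2 markers were higher in males. The summed fibroblast level ran from 8990 to 14322 intensity units in female MI, against 6006 to 16314 in female sham, and from 13391 to 14024 in male MI, against 8099 to 14159 in male sham. Without position F it ran from 13621 to 14322 in female MI, against 13879 to 16314 in female sham. In males it then ran from 13391 to 14024 in MI, against 11591 to 14159 in sham. The summed level overlapped between MI and sham in both sexes, with and without position F. It adds intensities, so the brightest markers weigh most in it. The part of fibroblast RNA in the collagen differences was not tested.

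Most measured markers of myofibroblasts, macrophages and monocytes, cycling cells and neutrophils were called higher in MI, and most atrial and epicardial markers were not. Of 5 measured myofibroblast markers, 5 were higher in females and 3 in males. Their summed level ran from 6684 to 11775 in female MI, against 4314 to 6062 in female sham. In males it ran from 4892 to 6259 in MI, against 3255 to 6493 in sham, where the groups overlapped. Of 7 macrophage and monocyte markers, 6 were higher in each sex, with sums of 4385 to 8746 in female MI, against 2319 to 3857 in female sham, and 4787 to 6146 in male MI, against 2423 to 3313 in male sham. All 4 measured markers of cycling cells were higher in each sex, and of 4 neutrophil markers 4 were higher in females and 3 in males. Cycling sums ran from 559 to 1133 in female MI, against 115 to 250 in female sham, and from 503 to 796 in male MI, against 132 to 195 in male sham. Neutrophil sums ran from 721 to 1959 in female MI, against 169 to 514 in female sham, and from 548 to 1349 in male MI, against 170 to 420 in male sham. Of 5 atrial markers 1 was higher in each sex, but the median log2 difference was -0.57 in females and -0.27 in males. Atrial sums ran from 14707.5 to 22777 in female MI, against 9093 to 16336 in female sham. In males they ran from 12045.5 to 18820 in MI, against 6634 to 15516 in sham. Of 3 epicardial markers 1 was higher in each sex, with a median of 0.21 in females and -0.36 in males. Epicardial sums ran from 215 to 299.8 in female MI, against 117 to 312 in female sham. In males they ran from 177 to 224 in MI, against 145 to 164 in sham, where the groups did not overlap. Ddr2, Dcn, Lum and Dpt of the fibroblast list and Fap of the myofibroblast list also stand in the lists of collagen partners. The part of these markers in the collagen result was not tested.

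Cardiomyocyte markers were bright in all groups. Of 8 measured cardiomyocyte markers, 2 were lower in females and 0 were called in males, and their summed level ran from 66816 to 74619 in female MI, against 72045 to 73872 in female sham, and from 69232 to 70898 in male MI, against 64932 to 75424 in male sham. Of 4 measured markers of cartilage, tendon and valve, where collagen XI is made, 1 was higher and 1 lower in females and 0 were called in males.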

How the data were processed

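Total RNA of 20 left ventricles was labelled as biotin cRNA for Illumina arrays, per the labels' protocols. For array version and scanner software, the sources used here give nothing. The authors deposited a linear bead intensity for each probe on each array. A detection p-value, so named in the headers, was deposited beside each intensity. A deposited log2 matrix had columns that each correlated best with their own array (lowest r 0.997); its medians lay between 5.14 and 5.15, it was not centred, and it was used as an alternative.

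From the intensities, neqc in limma 3.58.1 (R 4.3.3) corrected background with negative controls inferred from detection p, added an offset of 16, quantile normalised and took log2. Probes detected (p under 0.01) on 5 or more arrays were kept. Of all probes 34885 had 1 symbol in the platform annotation, 18 several and 10378 none. One model with a coefficient per group, 16 residual degrees of freedom and no covariate was fitted to every kept probe; gene counts use the probe with the highest mean. The model was tested on simulated data. The p-values set each difference against the spread between mice. The genes per list named are up to 2 per direction with the smallest p among those called; for likeness, the 5 with the highest r. The collagens, gene lists and tests were chosen with earlier results of these data known. Alternatives changed background correction, scaling, filter, probe choice, blocks, arrays fitted, weights and moderation, and left out each array. The most alike arrays, male MI 1 and 2, had a median absolute difference of 0.125 (log2) and count as separate mice.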

Additional observations from a re-analysis of the deposited data

How the results depend on the processing

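The counts of called collagen probes were recomputed under 15 other settings and with each of 20 arrays left out. Between 5 and 8 probes were called in females and between 5 and 7 in males, where the 7 with 75th percentile scaling include Col11a1 as lower. The fit within chip 3, with 4 MI and 2 sham females, called 3, and 1304 of all kept probes. These counts include the dimmer Col5a2 probe where it was called, although it was kept only through MI arrays. Over all kept probes, calls in females ran from 4231 with 1 probe per gene to 7892 with array weights, and in males from 2134 without male sham mouse 2 to 5307 with array weights. The labels give no pairing of mice, and replicate numbers were not used as pairs in the main fit. The correlation of same-numbered deviations ran from -0.07 to 0.33 in females and from -0.34 to 0.14 in males, which cannot show whether mice were paired. With the number as a block 7 collagen probes were called in each sex. Between female and male MI, 0 collagen probes were called when any array other than that of female MI mouse 3 was left out. Without that array 3 were called, the dimmer Col5a2 probe among them, and calls over all kept probes reached 775, against 27 in the main fit. With array weights the same 3 were called, where calls over all probes reached 2271. Between female and male sham, and for the difference in response, 0 collagen probes were called in every setting run. Among values not called in either setting, signs changed in 2 of 70 collagen values for MI against sham in females, 2 of 72 in males and 34 of 302 for the difference in response; the cause was not tested.

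Among the pairs of chains, Col5a2 minus Col5a1 in females passed the exact permutation test with an offset of 50 (-0.69, adjusted p = 0.0119), with no background correction (-0.47, adjusted p = 0.0272) and in the authors' log2 matrix (-0.47, adjusted p = 0.0272). In males the same pair turned to -0.44 with an offset of 50 (exact permutation adjusted p = 0.0119), against 0.16. Without position F, the exact permutation adjusted p in females was 0.0686 for Col5a3 minus Col5a1 (-1.44) and Col11a1 minus Col5a1 (-1.80). With 4 mice per group the smallest p this test can give is higher than with 5. The loss of these calls therefore does not show a dependence on position F. Without position F in males, the exact permutation adjusted p was 0.0952 for Col1a2 minus Col1a1 (-0.58). With 75th percentile scaling the last was -0.46 (exact permutation adjusted p = 0.0952), and with each array left out it lay between -0.69 and -0.49, losing its call in 8 of 20 cases. With the replicate block, tested by exact sign flips over 5 pairs, which cannot go below p = 0.0625, the values stayed at -1.46 and -1.84 in females and -0.58, -0.59, -1.36 and -1.55 in males, each with an adjusted p of 0.125. Counts of called genes in the partner lists also moved without position F: in females the remaining fibrillar collagens had 0 called against 1, and in males the receptors had 2 against 1, TGF-beta signalling 5 against 3, the hydroxylases and chaperones 8 higher and 0 lower against 5 and 1, and cross-linking 2 against 3. The other lists moved by at most 1 gene in each direction. Intensity near background limits Col5a3, Col11a1 and the dimmer Col5a2 probe, and 5 mice per group limit every comparison.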
